A study of Mus musculus with 20 samples.

Results

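The 10 genes described here, Tnc, Aldoc, Sparcl1, Slc1a2, Gfap, Aqp4, S100b, Ednrb, Rlbp1 and Gja1, are genes known from astrocytes and their precursors. They were taken by symbol from the 38414 genes listed in the deposited level tables, and by the same symbols from the deposited tables of RNA editing. All 10 were listed in each of the 4 level tables. The libraries came from OCT-embedded sections of wild-type C57BL/6J mouse embryos, processed by MAPIT-seq. In this assay an antibody placed on the tissue recruits a deaminase fusion, so that RNA near the antibody's target is edited in place and read out beside the transcriptome. The antibody was against G3BP1, an RNA-binding protein of stress granules, and rabbit IgG was the background control.

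The 20 libraries formed 10 groups of 2. Sections of E10.5 whole embryo labelled as fixed gave an IgG, an anti-G3BP1 and an untreated group, and so did E10.5 whole embryo labelled as fresh frozen. Fresh-frozen E12.5 brain and fresh-frozen E16.5 brain each gave an IgG and an anti-G3BP1 group. Sections of every IgG and anti-G3BP1 library were treated with 0.2% formaldehyde. They then received the rabbit antibody, a secondary antibody raised in guinea pig against rabbit, and rAPOBEC1-pAG-hADAR2, the deaminase fusion. RNA with poly(A) was sequenced. The untreated libraries had none of these, including those whose titles call the embryo fixed. The labels do not say that replicates came from separate animals, so every p-value below measures only the spread between these libraries, which may be technical. Each table holds 1 stage and 1 preparation, so stage, section and table cannot be told apart.

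Astroglia arise late in brain development from radial glia, the neural stem cells of the embryonic ventricular wall, after most neurons have been born. As they mature they take up the transmitter glutamate, couple to one another through gap junctions, contact blood vessels with end-feet and shape the extracellular matrix. Most genes used to recognise them are also active elsewhere. Tnc, Gja1 and Ednrb are known from mesenchyme or neural crest, Sparcl1 from blood vessels and neurons, and Rlbp1 from the retina. In sections, fewer cells of a type and less RNA per cell cannot be told apart.

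Positions of the editing readout were kept with at least 10 reads in each library of their table. Covering reads at the kept positions ranged from 36753147 to 63989003 per library in E16.5 brain. They ranged from 2933879 to 8731284 in E12.5 brain, from 5886522 to 9850910 in the libraries labelled fresh-frozen E10.5, and from 1997345 to 12120842 in fixed E10.5. The libraries labelled fresh-frozen E10.5 did not look like whole E10.5 embryo. Gria2, a glutamate receptor subunit of differentiated neurons, lay between 248 and 420 TPM (length-normalised transcript abundance) there, against 0.275 to 1.72 TPM in the fixed libraries. Myl7, an atrial heart muscle gene, lay between 0 and 10.7 TPM, against 1810 to 3100 TPM. The 2 brain tables differed in En2, a factor of the midbrain and anterior hindbrain chosen after its values were seen. It lay between 0 and 0.0992 TPM in E16.5 brain and between 16.4 and 69.6 TPM in E12.5 brain. The 6 midbrain and hindbrain factors listed with it, En2 included, summed to 77.2 to 97.6 TPM in E16.5 brain and to 47.1 to 129.8 TPM in E12.5 brain, so the list as a whole overlapped. Stage and brain region cannot be told apart between these 2 tables.

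The listed positions of these genes lay mostly at the 3′ end of their messages. Summed over the 4 tables, 806 positions were listed in the 10 genes, so 1 position can count more than once. At all 806 the base of the GENCODE M21 transcript (build GRCm38) equalled the base that the edit changes. Of the 664 kept positions, summed likewise, 517 (77.9%) lay in a 3′ UTR. The share over all genes is not given here. Not all kept positions were edited in an antibody library. Those without an edited read there numbered 11 of 35 in fixed E10.5 and 13 of 116 in the libraries labelled fresh-frozen E10.5. They numbered 80 of 109 in E12.5 brain and 207 of 404 in E16.5 brain. The fusion can make both kinds of edit: rAPOBEC1 deaminates cytidine, read as C-to-T, and hADAR2 deaminates adenosine, read as A-to-G. Untreated libraries, which had no fusion, also held edited reads of both kinds in these genes. In those labelled fresh-frozen E10.5 the shares were 0.253% and 0.118% for A-to-G and 0.42% and 0.396% for C-to-T. Of the positions discussed below 8 are shown, each among the most edited of a table or edited in both anti-G3BP1 libraries and in neither IgG library. Each holds a minority of its gene's edited reads. They are printed with 14 bases on each side, 5′ to 3′ on the transcript strand, the edited base in capitals. All lie in 3′ UTRs.
Ednrb C-to-T in chr14:103815231-103815259, minus strand: atttttaatttttaCtaagttttagattg
Ednrb C-to-T in chr14:103815062-103815090, minus strand: actatattaagtggCttttttattaaaaa
Tnc A-to-G in chr4:63960108-63960136, minus strand: caagctggccatacAggggacatggtcat
Tnc C-to-T in chr4:63960102-63960130, minus strand: ggccatacaggggaCatggtcattctccg
Sparcl1 A-to-G in chr5:104079325-104079353, minus strand: ctttaaaattaagtAgagtcaatgtctat
Slc1a2 A-to-G in chr2:102789473-102789501, plus strand: atacagccccgaggAggaatgggggtgaa
Rlbp1 A-to-G in chr7:79375428-79375456, minus strand: acttccctaggtttAggaacgctctagtg
Gja1 A-to-G in chr10:56390247-56390275, plus strand: gcgccagctacacaAggagtttttggaca

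In E16.5 brain, 4 of the genes were at high level and far above E12.5 brain. Tnc, which encodes the matrix glycoprotein tenascin-C, was at 122.5 and 119.1 TPM in the IgG libraries of E16.5 brain and at 146.0 and 151.4 TPM in the anti-G3BP1 libraries. In E12.5 brain it was at 6.99 and 4.81 TPM with IgG against 2.86 and 2.29 TPM with anti-G3BP1. No library of one stage overlapped the other. Sparcl1, a secreted matrix protein that promotes synapse formation, was at 275.5, 271.4, 258.2 and 251.3 TPM in E16.5 brain and between 18.7 and 43.6 TPM in E12.5 brain. Aldoc, the brain aldolase of glycolysis, was at 94.1, 82.3, 105.5 and 115.7 TPM in E16.5 brain and between 6.46 and 20.2 TPM in E12.5 brain. Rlbp1, the retinaldehyde-binding protein, was at 38.0 and 34.2 TPM with IgG against 57.6 and 59.7 TPM with anti-G3BP1 in E16.5 brain. It was listed at 0 in 2 of the 4 E12.5 libraries and at 0.691 and 4.94 TPM in the others.

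**Figure D1:**
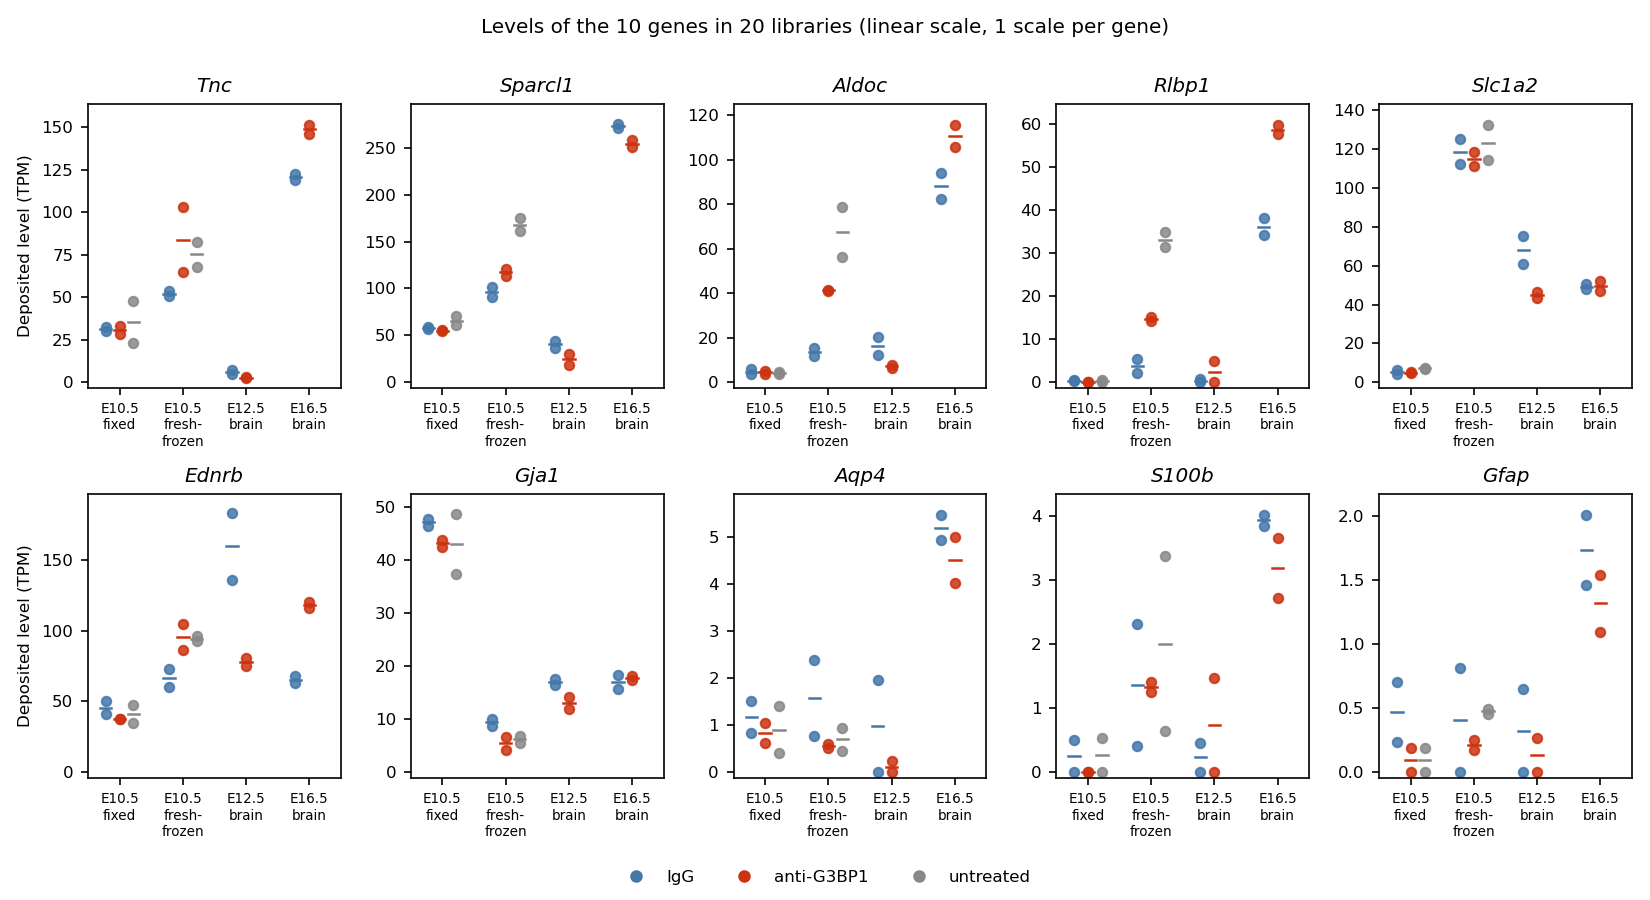
Deposited level in TPM (linear y axis, 1 scale per gene) of the 10 genes in the 20 libraries, by table on the x axis. Points are libraries, short lines group means of 2, colours the antibody. Tnc, Sparcl1, Aldoc and Rlbp1 are highest in E16.5 brain, Slc1a2 in the libraries labelled fresh-frozen E10.5, Gja1 in fixed E10.5.

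The test compared 4 E16.5 with 4 E12.5 libraries in limma on log2(TPM + 1), with the antibody as a covariate, after the tables, which were normalized separately, were rescaled over their shared genes. Benjamini-Hochberg adjusted p under 0.05 counted as a call. Of the 10 genes, 7 were higher in E16.5 brain and 0 lower, beside 32.3% of all 20162 genes tested that were higher and 17.7% that were lower. The median log2 difference of all genes was 0.17. Gfap, Aqp4, S100b and Rlbp1 passed the filter on low levels through E16.5 brain alone, so a difference in them was bound to point upward and their calls support nothing. Of the other 6 genes 3 were higher (Tnc, Aldoc and Sparcl1) and 3 were not called.

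By limma, Tnc was higher in E16.5 brain by 4.78 ± 0.25 on the log2 scale (SE; adjusted p = 2.23e-06). Aldoc was higher by 3.09 ± 0.28 (adjusted p = 3.3e-05) and Sparcl1 by 3.06 ± 0.17 (adjusted p = 2.95e-06). The calls of these 3 genes held in the IgG libraries alone and in the anti-G3BP1 libraries alone. Endothelial markers moved with Sparcl1: their summed level was 114 to 131 TPM in E12.5 brain and 338 to 383 TPM in E16.5 brain, with 8 of 9 genes higher. Within E12.5 brain 8 of the 9 passed the filter on low levels, so for the other the direction was fixed. The part of endothelial markers in the Sparcl1 result was not tested. The summed level of the retina and pigment epithelium markers was 5.25 to 6.84 TPM in E16.5 brain and 2.84 to 14.4 TPM in E12.5 brain, with 2 of 7 genes at a mean of 1 TPM or more in E16.5 brain and with Crx and Rpe65 at 0 in all 4 E16.5 libraries. The Rlbp1 difference in limma, whose direction the filter fixed, was 4.72 ± 0.48, and the part of these markers in it was not tested.

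The classical markers of mature astrocytes were low in every library. Gfap, the intermediate filament of mature astrocytes, was at 1.46, 2.01, 1.09 and 1.54 TPM in E16.5 brain. In E12.5 brain Gfap was listed at 0 in 2 libraries and at 0.645 and 0.263 TPM in the others. Aqp4, the water channel of astrocyte end-feet, was at 4.93, 5.47, 4.99 and 4.03 TPM in E16.5 brain, and was listed at 0 in 2 E12.5 libraries and at 1.96 and 0.234 TPM in the others. S100b, a calcium-binding protein, was at 4.02, 3.85, 2.72 and 3.67 TPM in E16.5 brain, and was listed at 0 in 2 E12.5 libraries and at 0.458 and 1.47 TPM in the others. The log2 differences in limma were 2.08 ± 0.36 for Aqp4, 1.72 ± 0.35 for S100b and 1.06 ± 0.28 for Gfap, given as a description because the filter fixed their direction.

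Transporter, receptor and junction genes were already present at E12.5. Slc1a2, the glutamate transporter GLT-1, was at 75.2 and 60.8 TPM with IgG against 46.3 and 43.3 TPM with anti-G3BP1 in E12.5 brain, and between 47.0 and 52.2 TPM in E16.5 brain. Gja1, the gap junction protein connexin 43, lay between 11.96 and 17.5 TPM in E12.5 brain and between 15.7 and 18.3 TPM in E16.5 brain. Neither was called by limma (Slc1a2 -0.15 ± 0.14, adjusted p = 0.40; Gja1 0.21 ± 0.15, adjusted p = 0.26). For Ednrb, the endothelin receptor type B, the direction between the stages differed between the IgG and the anti-G3BP1 libraries. The IgG libraries held 183.3 and 135.8 TPM at E12.5 and 62.7 and 67.8 TPM at E16.5, a log2 difference of -1.26 between the stages (limma, adjusted p = 0.00907). The anti-G3BP1 libraries held 74.7 and 80.7 TPM at E12.5 and 119.9 and 115.9 TPM at E16.5, a difference of 0.60 (limma, adjusted p = 0.00959). Over all 8 libraries the difference was -0.33 ± 0.33 (limma, adjusted p = 0.436). A direct test of whether the stage difference of Ednrb varied with the antibody did not call it (limma interaction 1.86 ± 0.21, adjusted p = 0.117). The fit of IgG libraries alone called 6595 of all genes, and the fit of anti-G3BP1 libraries alone was not planned.

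**Figure D2:**
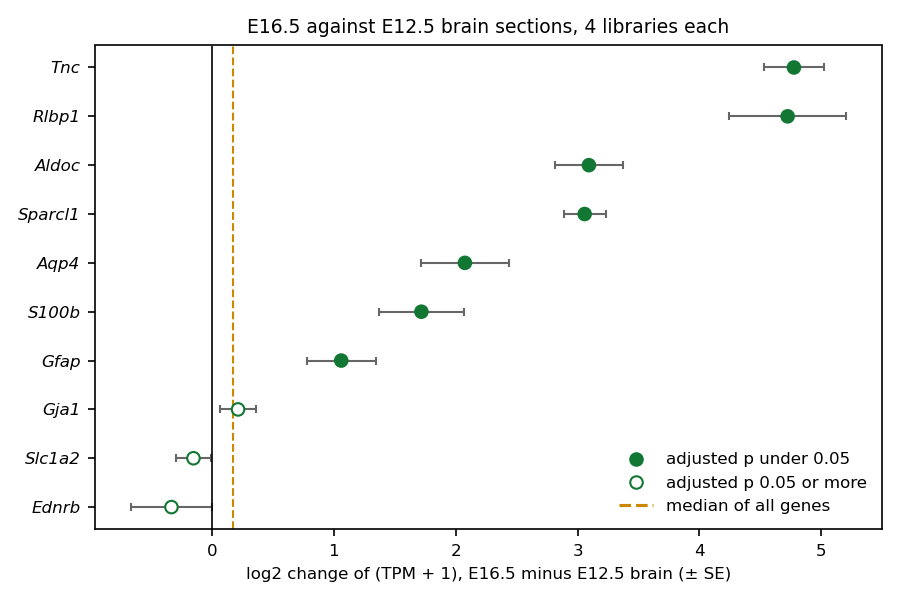
Difference in log2(TPM + 1) between E16.5 and E12.5 brain for each gene (x axis, log2 units; bars are SE; 4 libraries a stage, limma). Filled points, adjusted p under 0.05, run from 1.06 (Gfap) to 4.78 (Tnc), and the direction of Rlbp1, Aqp4, S100b and Gfap was fixed by the filter on low levels; the dashed line is the median of all genes, 0.17.

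Of 40 other genes known from astroglia, 29 were called higher in E16.5 brain and 3 lower, with a median log2 difference of 1.36. The largest rises by limma among those at 10 TPM or more were in the matrix proteoglycan Bcan (4.63 ± 0.51), the glial adhesion molecule Hepacam (3.94 ± 0.39), Ndrg2 (3.47 ± 0.20), the homeodomain gene Hopx (3.28 ± 0.41) and the transcription factor Nfix (3.004 ± 0.18). The 3 that fell were the bHLH inhibitor Id3 (-2.52 ± 0.16), the growth factor receptor Fgfr3 (-2.32 ± 0.18) and Sox9 (-1.37 ± 0.14), a factor of neural stem cells and glia. Of 13 radial glia genes 2 were higher and 9 lower. Of 11 genes of the oligodendrocyte lineage 9 were higher and 1 lower, and of 8 neuronal genes all 8 were higher. Within E12.5 brain 34 of the 40 other astroglial genes passed the filter on low levels. So did 12 of the 13 radial glia genes, 10 of the 11 oligodendrocyte lineage genes and all 8 neuronal genes. The rest passed it through E16.5 brain, so their direction was fixed and any calls of them support nothing.

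In fixed E10.5 whole embryo the same symbols followed another pattern. Gja1 was at its highest there, between 37.4 and 48.7 TPM in 6 libraries, with no overlap with any brain library. Tnc lay between 23.2 and 47.5 TPM, Sparcl1 between 54.8 and 70.2 TPM and Ednrb between 34.85 and 49.98 TPM. Slc1a2 lay between 4.10 and 7.55 TPM and Aldoc between 3.495 and 5.92 TPM. Rlbp1 was listed at 0 in 3 of the 6 libraries and at up to 0.539 TPM in the others, and Gfap, Aqp4 and S100b stayed at or under 1.51 TPM. Between E12.5 brain and fixed embryo, 8 antibody libraries, limma called 3 of the 7 genes tested higher in brain (Slc1a2 by 3.22 ± 0.18, Ednrb by 1.41 ± 0.17, Aldoc by 1.10 ± 0.28) and 3 lower. Those lower were Tnc (-2.69 ± 0.22), Gja1 (-1.54 ± 0.11) and Sparcl1 (-0.85 ± 0.18). Of all 20248 genes tested 48.9% were called, 29.3% higher and 19.6% lower. Aldoc lost the call with the anti-G3BP1 libraries alone (0.61, adjusted p = 0.145 in limma) and Sparcl1 with the IgG libraries alone (-0.52, adjusted p = 0.0506 in limma). Markers of meninges and mesenchyme summed to 1009 to 1261 TPM in the fixed embryo and to 151 to 236 TPM in E12.5 brain, and all 8 of them were lower in brain. Their part in the Tnc, Gja1 and Sparcl1 results was not tested.

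The libraries labelled fresh-frozen E10.5 matched neither the fixed embryo nor E16.5 brain. Gja1 was lower there than in any other table, at 4.23 to 10.1 TPM. Slc1a2 was higher there than in any other table, at 111.2 to 132.7 TPM with a median over 6 libraries of 116.4 TPM. Against E16.5 brain, over 8 antibody libraries, limma called Slc1a2 higher (1.23 ± 0.07, adjusted p = 5.22e-07) and 8 of the 10 genes lower. Gfap and Aqp4 passed the filter through E16.5 brain alone, so their direction was fixed. The other 6 lower genes ran from S100b (-1.02 ± 0.29) to Rlbp1 (-2.50 ± 0.28), and Ednrb was not called (-0.14 ± 0.10, adjusted p = 0.277). The untreated libraries were not in this fit. Their Rlbp1 levels, given below, overlapped those of the E16.5 IgG libraries, while their Aldoc and Sparcl1 levels stayed below E16.5 brain. Of all 23026 genes tested 37.8% were higher and 23% lower. S100b lost the call with IgG libraries alone in limma (-1.19, adjusted p = 0.0943). Against fixed E10.5 embryo, over 12 libraries, 7 of 9 genes tested were higher and 1, Gja1, lower (-2.53 ± 0.14), where 74.3% of all 23050 genes were called, 51.1% higher and 23.2% lower. Of the 7, Rlbp1 and S100b passed the filter through the fresh-frozen libraries alone, so their direction was fixed. Among the others Slc1a2 differed most, by 4.18 ± 0.11.

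Within the libraries labelled fresh-frozen E10.5, 3 of the 8 genes that passed the filter on low levels had the same order of groups. Aldoc was at 11.9 and 15.2 TPM with IgG, 41.3 and 41.1 TPM with anti-G3BP1 and 56.1 and 78.8 TPM untreated. Rlbp1 was at 5.43 and 2.02 TPM with IgG, 14.1 and 15.2 TPM with anti-G3BP1 and 31.4 and 34.8 TPM untreated. Sparcl1 was at 90.4 and 101.8 TPM with IgG, 113.3 and 120.9 TPM with anti-G3BP1 and 161.6 and 175.0 TPM untreated. In these 3 genes the IgG libraries were lowest, the untreated libraries highest, and no groups overlapped, an order found in 5.64% of all genes. The other 5 genes did not take it: in Tnc, Ednrb, Gja1, S100b and Slc1a2 the untreated libraries overlapped the anti-G3BP1 libraries. The summed radial glia markers were 921 and 999 TPM with IgG, 1690 and 1623 TPM with anti-G3BP1 and 1475 and 1569 TPM untreated. The part of cell content in these differences was not tested.

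Whether the members' levels moved with the antibody was tested within each table with limma, 2 libraries a group. None of the 10 genes was called in any table. Of all genes, 0% were called in fixed E10.5, 0.034% in the libraries labelled fresh-frozen E10.5 (0.0297% higher and 0.00425% lower), 0% in E12.5 brain, and for E16.5 brain 0.0108%. At an unadjusted p under 0.05 there were 0 of 7 members in fixed E10.5, 5 of 8 in the libraries labelled fresh-frozen E10.5, 4 of 6 in E12.5 brain and 4 of 10 in E16.5 brain. The matching shares of all genes were 6.02%, 11.8%, 13.6% and 9.91%. G3bp1 itself was at 110.2 to 122.9 TPM in E16.5 brain, 143.0 to 163.5 TPM in E12.5 brain, 92.7 to 118.2 TPM in the libraries labelled fresh-frozen E10.5 and 159.2 to 221.5 TPM in fixed E10.5.

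In E12.5 brain all 6 genes that passed the filter on low levels had both anti-G3BP1 libraries below both IgG libraries. Of all genes 33.7% were placed this way and 14.7% the other way. The median log2 difference of the 6 was -0.84 and that of all genes -0.15. In fixed E10.5, 3 of the 7 genes that passed the filter (Sparcl1, Ednrb and Gja1) lay below IgG without overlap and 0 above it, beside 36.1% and 9.74% of all genes. In the libraries labelled fresh-frozen E10.5, 5 of 8 (Tnc, Aldoc, Sparcl1, Ednrb and Rlbp1) lay above IgG and Gja1 below it, beside 21.5% and 21.2% of all genes. In E16.5 brain 4 genes, Tnc, Aldoc, Ednrb and Rlbp1, had both anti-G3BP1 libraries above both IgG libraries, as had 17.8% of all genes. Sparcl1 and S100b were placed the other way, as were 23.6%. Tnc, Aldoc and Ednrb were thus below IgG in E12.5 brain and above it in E16.5 brain, a combination found in 6.11% of all genes. The summed level of the 40 other astroglial genes had the same order. It was 3854 and 3403 TPM with IgG against 3339 and 3084 TPM with anti-G3BP1 in E12.5 brain, and 4770 and 4790 TPM against 5189 and 5463 TPM in E16.5 brain. The median difference between the stages in the antibody's log2 effect was 0.53 for the 10 genes, 0.54 for the 40 and 0.12 for all genes.

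Among these 3 genes Ednrb differed most. By limma its anti-G3BP1 level differed from IgG by -1.01 ± 0.19 in E12.5 brain (adjusted p = 0.191) and by 0.85 ± 0.08 in E16.5 brain (adjusted p = 0.0689). In E16.5 brain it reached the call without IgG replicate 2 (0.90, adjusted p = 0.0325) or without anti-G3BP1 replicate 2 (0.87, adjusted p = 0.0113) in limma, fits in which the lone library of an arm is assumed to vary like the other group and which called 9 and 68 of all genes instead of 2. The difference between the stages, an interaction added after the data were seen, was 1.86 ± 0.21 for Ednrb (adjusted p = 0.117), 1.38 ± 0.32 for Aldoc (adjusted p = 0.189) and 1.23 ± 0.26 for Tnc (adjusted p = 0.174) in limma. No gene of 20162 was called in that test, and 4 of 10 members and 14.3% of all genes had an unadjusted p under 0.05. Without E12.5 IgG replicate 2 all 3 were called, in a fit that called 156 of all genes and takes the spread of the lone IgG library from the other groups. Markers of other cell types were summed as well. Neural crest and Schwann markers summed to 79.0 and 64.5 TPM with IgG against 47.8 and 54.8 TPM with anti-G3BP1 in E16.5 brain. In E12.5 brain they summed to 72.5 and 94.8 TPM against 96.9 and 98.4 TPM. Radial glia markers summed to 1016 and 1023 TPM with IgG against 1214 and 1182 TPM with anti-G3BP1 in E16.5 brain, and to 2974 and 3166 TPM against 3002 and 2823 TPM in E12.5 brain. The radial glia sums thus overlapped in E12.5 brain. No gene of either list was called between antibody groups in the brain libraries. The part of these markers in the differences was not tested.

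**Figure D3:**
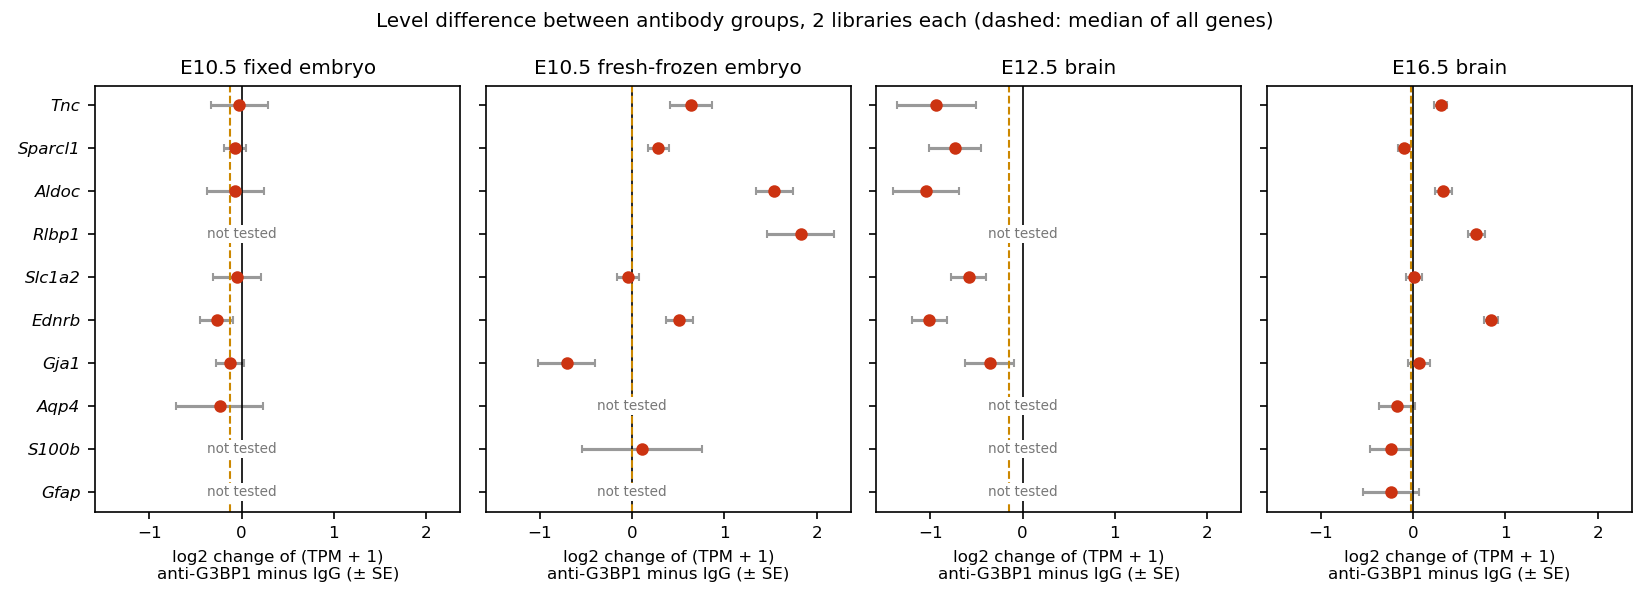
Difference in log2(TPM + 1) between anti-G3BP1 and IgG libraries (x axis, log2 units; bars are SE; 2 libraries a group, limma) for each gene in the 4 tables. In E12.5 brain all 6 tested genes lie left of zero; in E16.5 brain Ednrb (0.85) and Rlbp1 (0.69) lie farthest right; none was called.

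The editing readout compared the share of edited reads per gene, summed over its kept positions, between anti-G3BP1 and IgG. A quasi-binomial model with Benjamini-Hochberg adjustment over all genes was fitted to genes with 50 or more covering reads in every library. Of the 10 genes, 8 could be tested in E16.5 brain, 4 in the libraries labelled fresh-frozen E10.5, 3 in E12.5 brain and 2 in fixed E10.5. Gfap and S100b could be tested in none: Gfap had 4 listed positions and S100b 1, all in E16.5 brain and all under the read minimum. In every one of these 17 gene and table pairs the edited share was higher with anti-G3BP1, and in none was it called. Of the pairs too thin to test, Ednrb in fixed E10.5 went the other way. It had 2 edited of 324 covering reads and 2 of 156 with IgG, and 0 of 157 and of 120 with anti-G3BP1. Sparcl1 in fixed E10.5 and Aldoc in the libraries labelled fresh-frozen E10.5 had more edited reads with anti-G3BP1. Most of all genes tested had a higher edited share with anti-G3BP1 as well. They were 77.7% of genes in E16.5 brain, 79.2% in the libraries labelled fresh-frozen E10.5, 65.2% in E12.5 brain and 61.8% in fixed E10.5. Of all genes the quasi-binomial model called 6.65%, 2.41%, 0% and 0.0179% in these tables. At an unadjusted p under 0.05 the members numbered 2 of 8, 3 of 4, 0 of 3 and 0 of 2, beside 2126 of 11741, 1246 of 7836, 171 of 5568 and 148 of 5594 genes. The alternative test with edgeR called 0 members in each table and 934, 296, 15 and 1 of all genes.

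In E16.5 brain the members had 404 kept positions. Over these, 0.122% and 0.112% of covering reads were edited in the IgG libraries and 0.249% and 0.209% in the anti-G3BP1 libraries. The 95% Wilson intervals of the IgG libraries, 0.099 to 0.150% and 0.0872 to 0.144%, did not reach those of the anti-G3BP1 libraries, 0.209 to 0.297% and 0.180 to 0.243%. These intervals cover counting error only, since reads copied by PCR are not independent molecules. Over all kept positions of the table the share rose too, from 0.2162% and 0.2271% with IgG to 0.3741% and 0.3458% with anti-G3BP1. The members' shares were below these with either antibody. Tnc had 23 edited of 23227 covering reads and 6 of 16613 with IgG, and 38 of 15733 and 29 of 26284 with anti-G3BP1. Its shares were 0.0990% and 0.0361% against 0.242% and 0.110%, a log2 odds difference of 1.12 ± 0.43 (quasi-binomial, adjusted p = 0.0983). With a replicate block it was 1.36 (quasi-binomial, adjusted p = 0.0434). It ranged from 0.59 without anti-G3BP1 replicate 1 to 2.10 without IgG replicate 1, and was 0.68 without IgG replicate 2 and 1.72 without anti-G3BP1 replicate 2. Sparcl1 was edited at 0.0723% and 0.109% with IgG against 0.214% and 0.193% with anti-G3BP1 (log2 odds 1.19 ± 0.48, quasi-binomial adjusted p = 0.124). The median log2 odds difference of all genes was 0.65 and that of the 8 members 0.91.

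The remaining E16.5 genes were thinner or closer to background. Rlbp1 had 1 edited of 509 covering reads and 0 of 324 with IgG, 1 of 452 in anti-G3BP1 replicate 1 and 19 of 812 in replicate 2. Its log2 odds difference of 3.19 ± 1.92 (quasi-binomial, adjusted p = 0.402) thus rested on 1 library (0.62 without it), and 8 of those 19 edited reads lay at the A-to-G position shown above. Aqp4 had 0 edited of 399 and of 321 covering reads with IgG, which allows shares of up to 0.752% and 0.935%, and 2 of 260 and 4 of 345 with anti-G3BP1. Ednrb was edited at 0.238% and 0.290% with IgG against 0.327% and 0.369% with anti-G3BP1, Slc1a2 at 0.171% and 0.106% against 0.229% and 0.195%. In Gja1 (0.234% and 0.302% against 0.469% and 0.245%) and Aldoc (0.0292% and 0.105% against 0.126% and 0.0859%) the groups overlapped. Covering reads of Ednrb numbered 6717 and 5513 with IgG against 7654 and 11934 with anti-G3BP1. These counts come from the same libraries as its level and are not corrected for library depth, so they are no separate evidence.

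In the libraries labelled fresh-frozen E10.5 the members were edited at 0.628% and 0.642% with IgG, at 1.39% and 1.2% with anti-G3BP1 and at 0.347% and 0.277% untreated. Shares over all kept positions of that table were close to these. Untreated libraries stood at 0.3798% and 0.3555%, IgG libraries at 0.6357% and 0.6606%, and anti-G3BP1 libraries at 1.219% and 1.2458%. The members' pooled rise was thus near that of the whole table. Ednrb had 4 edited of 577 covering reads and 0 of 615 with IgG, 18 of 749 and 25 of 1467 with anti-G3BP1 and 0 of 769 and of 743 untreated. The counts of 0 allow shares of up to 0.488% in IgG replicate 2 and of 0.390% and 0.404% untreated. Its shares with anti-G3BP1 were 2.40% and 1.70%, above every other library of the table (log2 odds 2.40 ± 0.995, quasi-binomial adjusted p = 0.198). This difference was 5.62 without IgG replicate 1 and 1.43 without IgG replicate 2. Sparcl1 was edited at 0.393% and 0.434% with IgG, 1.77% and 1.09% with anti-G3BP1, beside 0.278% and 0.133% untreated (log2 odds 1.64 ± 0.72, quasi-binomial adjusted p = 0.23). Tnc was at 0.261% and 0.312% with IgG, 0.693% and 0.900% with anti-G3BP1, beside 0.401% and 0.328% untreated (log2 odds 1.501 ± 0.74, quasi-binomial adjusted p = 0.305). The median log2 odds difference of all genes was 0.91 and that of the 4 members 1.57.

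Slc1a2 stood apart from the other 3 in that its IgG share was already high. It was edited at 0.969% and 1.16% with IgG, 1.29% and 1.46% with anti-G3BP1, beside 0.429% and 0.418% untreated. Anti-G3BP1 exceeded IgG by a log2 odds difference of 0.39 ± 0.38 (quasi-binomial, adjusted p = 0.541), and IgG exceeded untreated by 1.32 ± 0.47 (quasi-binomial, adjusted p = 0.42). C-to-T positions alone turned the second (-0.86), and A-to-G positions alone turned the first (-0.25). Neither was called, and of all 7836 genes 0.242% were called between IgG and untreated. The 2 kinds of edit differed over the members: A-to-G positions were edited at 1.05% and 1.10% with IgG against 1.34% and 1.43% with anti-G3BP1, and C-to-T positions at 0.273% and 0.280% with IgG against 1.42% and 1.01% with anti-G3BP1. Over all genes A-to-G went from 0.728% and 0.793% to 1.68% and 1.73% and C-to-T from 0.566% and 0.561% to 0.873% and 0.882%. With IgG, Slc1a2 alone held 22 of the 34 and 24 of the 33 edited reads of the members, both kinds together. The difference between kinds was not tested.

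**Figure D4:**
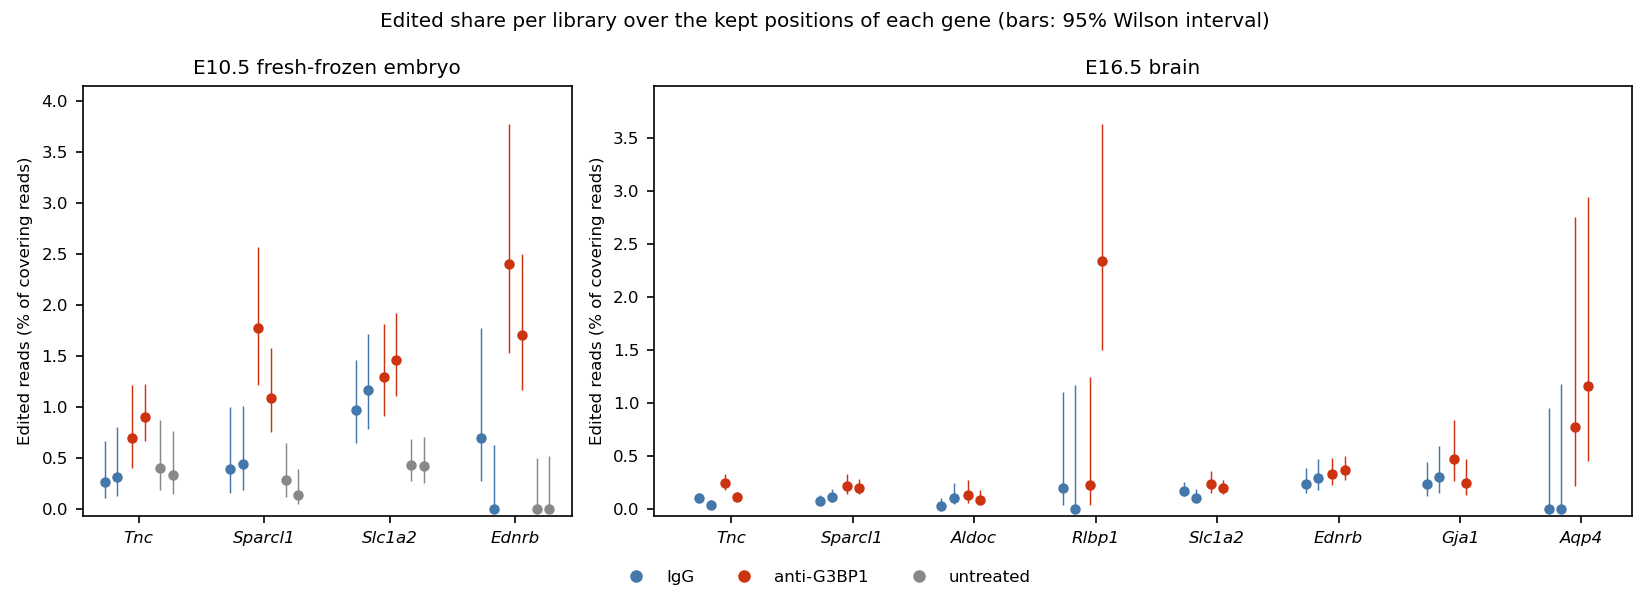
Edited reads as a percent of covering reads (y axis, linear) per library and gene, for the libraries labelled fresh-frozen E10.5 (left) and E16.5 brain (right); bars are 95% Wilson intervals of counting error. Ednrb with anti-G3BP1 reaches 2.40% and 1.70% on the left, and 1 Rlbp1 library reaches 2.34% on the right.

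Fewer edited reads were available in the other tables. In E12.5 brain Slc1a2 had 1 and 3 edited reads with IgG against 6 and 5 with anti-G3BP1 (0.0608% and 0.0663% against 0.189% and 0.133%). Ednrb was edited at 0.0920% and 0.476% with IgG against 0.788% and 0.466% with anti-G3BP1, with overlapping groups, and Gja1 had 0 and 1 edited reads against 0 and 3. In fixed E10.5 Gja1 was edited at 0.0904% and 0.0457% with IgG against 0.277% and 0.173% with anti-G3BP1, but at 0.289% and 0.651% untreated. Tnc was edited at 0.593% and 0.152% with IgG, 0.681% and 0.663% with anti-G3BP1 and at 0 and 1.19% untreated. Its untreated replicate 2 had 252 covering reads in Tnc, the fewest of the 6 libraries, and the 0 of replicate 1 allows a share of up to 0.180%. In Gja1 both untreated libraries of the fixed embryo thus lay above all 4 antibody libraries.

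Single positions repeated little between tables. A position edited in both anti-G3BP1 libraries and in neither IgG library was found 2 times in fixed E10.5, 12 times in the libraries labelled fresh-frozen E10.5, 0 times in E12.5 brain and 16 times in E16.5 brain. These were 5.71%, 10.3%, 0% and 3.96% of the members' kept positions, where all kept positions gave 1.24%, 6.24%, 1.10% and 3.0%. One position met the rule in 2 tables, the first Ednrb position shown above. In the libraries labelled fresh-frozen E10.5 it had 1 edited of 12 reads and 2 of 38 with anti-G3BP1 and 0 of 17 and of 13 with IgG. In E16.5 brain it had 1 of 152 and 2 of 225 with anti-G3BP1 and 0 of 155 and of 102 with IgG. The second Ednrb position had 2 of 221 and 4 of 372 reads edited with anti-G3BP1 and 0 of 190 and of 167 with IgG in E16.5 brain.

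The leading Tnc positions of fixed E10.5 and E16.5 brain lay 6 bases apart and were of different kinds. The C-to-T position had 2 of 100 and 4 of 69 reads edited with anti-G3BP1 in fixed E10.5 and 1 of 145 and 0 of 109 with IgG. The A-to-G position had 4 of 377 and 1 of 616 with anti-G3BP1 in E16.5 brain and 0 of 575 and of 388 with IgG. In the libraries labelled fresh-frozen E10.5 the Slc1a2 position had 7 of 107 and 4 of 123 reads edited with anti-G3BP1, 1 of 59 and 1 of 65 with IgG, and none of 173 and of 158 untreated. The Sparcl1 position had 4 of 84 and 8 of 146 with anti-G3BP1, 3 of 60 and 1 of 75 with IgG, and 3 of 111 and 0 of 138 untreated. The Gja1 position had 3 of 276 and 1 of 204 with anti-G3BP1 in fixed E10.5 and 0 of 442 and of 298 with IgG.

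Among the 40 other astroglial genes the editing test made 4 calls, all higher with anti-G3BP1. Of all genes 6.65% were called in E16.5 brain and 2.41% in the libraries labelled fresh-frozen E10.5, and 0 were called lower in either. Other lists had calls in E16.5 brain as well. They were 5 of 12 tested radial glia genes, 3 of 8 neuronal, 1 of 8 endothelial and 0 of 9 oligodendrocyte lineage genes. Slc1a3, the second astroglial glutamate transporter, was called in E16.5 brain (log2 odds 1.66 ± 0.37, quasi-binomial adjusted p = 0.00109), as were Glul, the glutamine synthetase (1.01 ± 0.34, adjusted p = 0.0479), and Id4 (0.90 ± 0.30, adjusted p = 0.0496), of 30 tested. Nfib, a factor of gliogenesis, was called in the libraries labelled fresh-frozen E10.5 (1.53 ± 0.39, adjusted p = 0.0169), of 22 tested. Slc1a3 was also the 1 gene of the list whose level was called between antibody groups, in the libraries labelled fresh-frozen E10.5 (limma log2 1.66, adjusted p = 0.0478). That call was lost with a pseudocount of 0.1, with no filter and with a replicate block, each of which left 0 genes called. The medians of this list, 0.60 in E16.5 brain and 1.12 in the libraries labelled fresh-frozen E10.5, lay beside 0.65 and 0.91 for all genes.

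The genes whose level followed the members most closely were described by Pearson's r, over the 20 libraries, with the members' mean log2 level on values rescaled over the genes that all tables share. Of 15805 genes ranked, Sla (r = 0.984), Ndrg2 (0.973), Ddah1 (0.970), Arrb1 (0.970) and Mpped1 (0.970) were the highest. Sla, for example, was at a group mean of 28.1 and 25.1 TPM in E16.5 brain, 5.93 to 12.7 TPM in the libraries labelled fresh-frozen E10.5 and at most 1.23 TPM elsewhere. Among the members Rlbp1 (0.961), Aldoc (0.944), Sparcl1 (0.934) and S100b (0.893) followed their common mean, to which each contributes. Tnc had an r of 0.783, Gfap 0.762, Aqp4 0.708, Slc1a2 0.588 and Ednrb 0.451, and Gja1 ran against it (-0.503). The libraries share tables, stage and preparation, so these values describe the 4 tables more than independent samples.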

How the data were processed

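RNA levels and RNA editing were analysed in 20 mouse libraries. The authors deposited TPM per gene and library, per the file headers and the labels. The deposited editing tables give counts of covering and of edited reads per position and library, per the file headers. The submitters' processing notes name HISAT2 2.2.1, BWA 0.7.17, Picard 3.1.1, GATK 4.5.0.0, Subread, featureCounts 2.0.1 and the builds mm10 and GRCm38. The role of each tool and the rule that lists a position were not given in the sources used here. In 3 tables positions with 1 edited read were rarer than positions with 2, so low shares depend on that rule.

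Levels were tested with limma 3.58.1 (R 4.3.3) on log2(TPM + 1), for genes at 1 TPM or more in at least 2 libraries of the fit. A fold on this scale understates the change of low genes. Tables normalized separately were compared only after rescaling over shared genes. Editing used a quasi-binomial logistic model on reads summed per gene over positions with 10 or more reads in every library, for genes with 50 or more such reads. Before the fit 0.25 edited and 0.25 unedited reads were added, and the spread was shared across genes and kept at 1 or more. edgeR 4.0.16 was the alternative. All tests were two-sided with Benjamini-Hochberg adjustment over all genes, and both were tested on simulated data. Identical repeated lines were dropped, and a position listed under several genes counted for each.

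The members, the other lists and the tests were chosen with earlier results of these data known. Named beyond the 10 genes were the 5 other astroglial genes with the largest rise and the 5 with the largest fall between the brain stages (called, 10 TPM or more), those called in editing, the 5 genes most like the members' mean, and per table the 3 positions with most edited reads plus those edited in both anti-G3BP1 and no IgG library. From these positions 8 were printed. Alternatives were the pseudocount, the filters, the scaling, the kind of edit, edgeR, a replicate block and leaving out each library.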

Additional observations from a re-analysis of the deposited data

Results flagged for a closer look

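For 3 genes every anti-G3BP1 library lay below both IgG libraries in E12.5 brain and above both in E16.5 brain. Of all genes 6.11% had this combination, and 33.7% lay below IgG in E12.5 brain. The difference of the antibody's log2 level change between the stages (E16.5 minus E12.5) was 1.234 for Tnc, 1.375 for Aldoc and 1.859 for Ednrb. This interaction was added after the data were seen, and no gene was called in it over all 8 libraries (limma, adjusted p = 0.174, 0.189 and 0.117). In the fits that left out 1 library each, the adjusted p in limma ranged from 0.0302 to 0.598 for Ednrb, from 0.0488 to 0.66 for Tnc and from 0.0488 to 0.67 for Aldoc.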

How the results depend on the processing

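Fits that left out 1 library each gave 0 to 3 members called in the stage difference of the antibody's effect and 0 to 1 in the antibody's effect on levels in E16.5 brain, where 0 were called with all libraries. The 3 calls came without E12.5 IgG replicate 2, when all genes went from 0 to 156 calls. Single genes that no test called changed sign in these fits. In the stage difference the ranges were -1.50 to 1.07 for Rlbp1, -0.41 to 0.31 for Gfap, -0.33 to 1.24 for Aqp4 and -1.28 to 0.027 for S100b. In the antibody's effect on levels they were -0.31 to 0.22 (Slc1a2), -0.15 to 0.091 (Tnc) and -0.38 to 0.24 (Aldoc) in fixed E10.5, -0.12 to 0.034 (Slc1a2) and -0.51 to 0.73 (S100b) in the libraries labelled fresh-frozen E10.5, and -0.067 to 0.083 (Slc1a2) and -0.039 to 0.17 (Gja1) in E16.5 brain. Between fresh-frozen and fixed E10.5, Aqp4 ran from -0.20 to 0.056. In editing they were -1.61 to 4.83 for Tnc, IgG against untreated, in fixed E10.5, -1.70 to 1.90 for Gja1 in E12.5 brain, and -0.075 to 1.67 for Aldoc and -0.095 to 0.84 for Gja1 in E16.5 brain.

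Other settings turned signs as follows. Anti-G3BP1 libraries alone gave 0.14 for Slc1a2 and 0.60 for Ednrb between the brain stages, and IgG libraries alone gave 0.033 for Ednrb (fresh-frozen E10.5 against E16.5) and 0.20 for Aqp4 (fresh-frozen against fixed E10.5). A pseudocount of 0.1 gave 0.15 for Gfap in the stage difference. In editing, 20 or more reads per site gave -0.61 for Tnc (fixed E10.5) and 0.26 for Tnc (IgG against untreated, fresh-frozen E10.5). A minimum of 5 reads gave -0.17 for Gja1 (E12.5). A-to-G positions alone gave -0.25 for Slc1a2 and 0.040 for Tnc (IgG against untreated), both fresh-frozen E10.5. C-to-T positions alone gave -0.86 for Slc1a2 (IgG against untreated, fresh-frozen E10.5) and -0.076 for Gja1 (E16.5). Read against the median change of all genes, Slc1a2 was at -0.52 in fresh-frozen E10.5, and Slc1a2, Ednrb and Gja1 were at -0.13, -0.23 and -0.31 in E16.5 brain. The cause was not tested.

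Same-numbered libraries did not deviate together (r from -0.126 to 0.0564). This check gave no sign of pairing by number but cannot exclude it, since noise particular to each library would hide it. With the replicate block 1 member, Tnc in E16.5 brain, was called in editing (log2 odds 1.36, adjusted p = 0.0434), and all genes called there numbered 743 instead of 781.

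Counts over all genes depended on settings. Editing in E16.5 brain called 781 genes, 497 by A-to-G alone, 18 by C-to-T alone, 8 against the median change, and 0 to 161 without 1 library. In fresh-frozen E10.5 it called 189, against 335 with 5 reads per site, 119 with 20, 117 with 20 reads per gene, 82 by A-to-G, 0 by C-to-T, 4 against the median, 296 by edgeR, 69 with the block and 0 to 106 without 1 library. IgG against untreated there called 19, and 0 to 162 under the alternatives. E12.5 editing called 0, 15 by edgeR and 0 to 38 without 1 library. Levels between antibody groups called 8 genes in fresh-frozen E10.5 (0 with another pseudocount, no filter or the block), 0 to 174 in E12.5 without 1 library and 2 to 68 in E16.5. IgG libraries alone called 6595 instead of 10089 genes between brain stages and 6431 instead of 9904 between E12.5 and fixed E10.5. Member counts between tables stayed within 1.5 times under every alternative run. At this depth 6 or more of the 10 members could not be tested in 3 of 4 tables.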
